A study of Mus musculus with 9 samples.

Results

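The 10 genes described here are targets of the hypoxia-inducible factors (HIFs): Ndrg1, Vegfa, Bnip3, Pdk1, Egln1, Egln3, Kdm3a, P4ha1, P4ha2 and Ero1l, which RefSeq names Ero1a. They were taken by symbol from a fixed list, and all 10 were found among the 55487 genes of a table of raw RNA sequencing counts. The cells were B16F10, a mouse melanoma line, kept for 6 h in 1 of 3 conditions. The IFNγ plus FK866 group received interferon gamma at 50 ng/mL with FK866 at 50 nM, the IFNγ group received interferon gamma alone at 50 ng/mL, and the media group received neither. FK866 inhibits NAMPT, an enzyme that recycles nicotinamide into NAD. The treatment text allows for either mouse or human interferon gamma. Each group had 3 libraries, titled Control 3, Control 4 and Control 5 in every group, and the meaning of these numbers is not stated. No group received FK866 without IFNγ, and no label names a change in oxygen.

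HIFs are pairs of a regulated alpha subunit (Hif1a or Epas1) and a stable partner (Arnt). With oxygen present, prolyl hydroxylases of the Egln family mark the alpha subunit for capture by the Vhl ubiquitin ligase and destruction, and without oxygen the alpha subunit persists and binds DNA at hypoxia response elements. Its targets shift cells from respiration to glycolysis, build blood vessels and collagen, and restrain the pathway itself. IFNγ signals through JAK kinases, and in melanoma cells it is known for raising antigen presentation and lowering pigment genes.

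Library totals ran from 15317003 to 18466972 counts, and 15237 genes passed the filter on low counts, all 10 HIF targets among them. The 8 melanocyte markers were detected in every library, with summed levels of 22500 to 26600 CPM (counts scaled to the effective library size) with IFNγ plus FK866, 24000 to 26700 CPM with IFNγ and 25900 to 27700 CPM in media. Mitf, the melanocyte master factor, was lower with IFNγ than in media by a log2 fold change of -1.27 (edgeR adjusted p = 0.000773). Of 10 leukocyte markers, 7 had no count in any library, and the list summed to between 3.38 and 11.7 CPM. Of 12 stromal, endothelial and epithelial markers, 5 had no count, and the list summed to 8.64 to 13.8 CPM with IFNγ plus FK866, 8.76 to 12.7 CPM with IFNγ and 13.6 to 19.2 CPM in media. Some markers differed by number. In Control 3, 4 and 5 Tyr averaged 202, 113 and 393 CPM, Cd68 7.65, 10.1 and 3.66 CPM, and Pdgfra 1.11, 6.72 and 1.89 CPM, genes named after their values were seen. Of the 8 melanocyte markers 0 were called higher and 2 lower in Control 4 against Control 5, beside 15.9% and 15.2% of all genes. The part of the markers in the results was not tested. The labels do not state separate cultures, so p-values reflect the spread among these 9 libraries, which may be technical. In bulk RNA, fewer cells expressing a gene and less RNA per cell cannot be told apart.

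Scaled by exon length, Ero1l had the highest level of the 10 genes in every group. Its mean was 123 ± 32.9 CPM per kb with IFNγ plus FK866, 130 ± 40.1 CPM per kb with IFNγ and 56.5 ± 11.9 CPM per kb in media (SD, n = 3 each, here and for the levels that follow). With IFNγ plus FK866 the order after Ero1l was Kdm3a at 25.2 ± 2.77, P4ha1 at 21.9 ± 7.64, Egln1 at 15.2 ± 1.89, Bnip3 at 13.9 ± 2.66 and Ndrg1 at 10.0 ± 1.78 CPM per kb. Vegfa at 5.05 ± 1.5, Pdk1 at 4.96 ± 2.71, P4ha2 at 3.56 ± 1.43 and Egln3 at 2.65 ± 1.90 CPM per kb came last. In that group the mean ± SD ranges of neighbours overlapped except between Ero1l and Kdm3a and between Ndrg1 and Vegfa. In media Ndrg1 stood next to Ero1l, at 23.8 ± 1.07 CPM per kb, ahead of P4ha1 at 20.7 ± 6.12, Kdm3a at 18.1 ± 3.41, Egln1 at 18.0 ± 2.43 and Bnip3 at 13.7 ± 3.60 CPM per kb. Ndrg1 thus held the second place in media and the sixth with IFNγ plus FK866, although it and its neighbour P4ha1 in media overlapped within their SD.

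**Figure D1:**
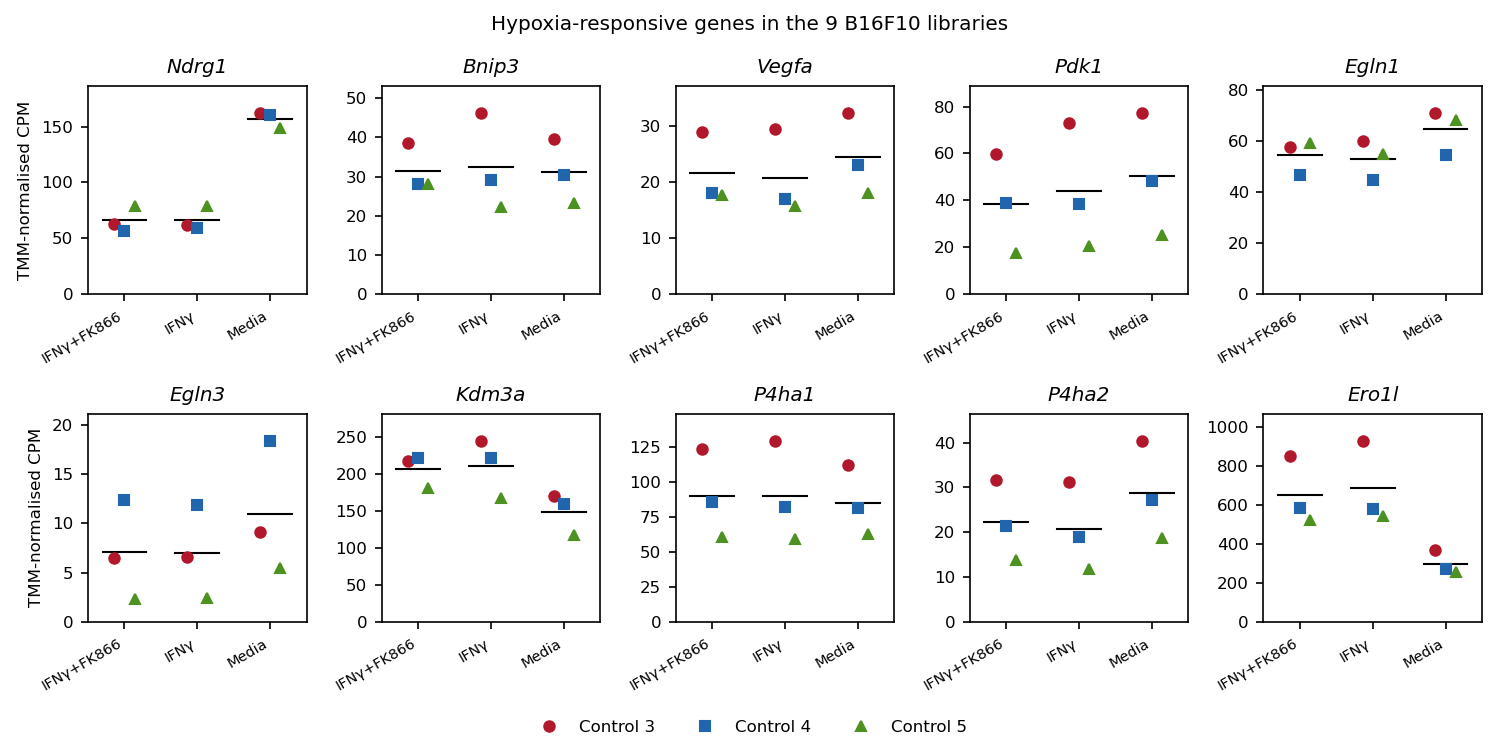
TMM-normalised CPM (vertical axes, each from 0) of the 10 genes in the 9 libraries, by treatment (horizontal axes); red circles are Control 3, blue squares Control 4, green triangles Control 5, and black lines group means. Ndrg1 ran from 56.4 to 79.2 CPM with IFNγ, with or without FK866, and from 149 to 162 CPM in media, while Pdk1, P4ha1 and P4ha2 were ordered Control 3, 4, 5 in every group.

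Ndrg1 (ENSMUSG00000005125, GRCm38 chr15:66929318-66969640, minus strand) encodes a cytoplasmic stress protein linked to growth arrest and suppression of metastasis. It read 63.1, 56.4 and 79.2 CPM with IFNγ plus FK866, 62.2, 59.5 and 78.5 CPM with IFNγ, and 162, 160 and 149 CPM in media, in the order Control 3, 4 and 5. All libraries with IFNγ lay below all media libraries, and the levels with and without FK866 interleaved. With IFNγ against media Ndrg1 fell 2.35-fold, a log2 fold change of -1.23 (SE 0.15, edgeR adjusted p = 0.00108). With IFNγ plus FK866 against the same media libraries the log2 fold change was -1.25 (SE 0.15, edgeR adjusted p = 0.00103). Both calls held in every alternative run, among them the removal of any library. Within numbers the IFNγ minus media differences in log2 CPM were -1.38, -1.43 and -0.92 for Control 3, 4 and 5. No strand setting is given in the sources used here, so reads of the opposite-strand genes Gm2895 and Gm17035 cannot be told apart from those of Ndrg1. Those genes held 18 and 7 counts over the 9 libraries, against 14667 for Ndrg1.

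Ero1l (ENSMUSG00000021831, chr14:45283087-45318771, minus strand) encodes the oxidase that reloads protein disulfide isomerase in the endoplasmic reticulum and so consumes oxygen. It read 849, 582 and 523 CPM with IFNγ plus FK866, 929, 581 and 545 CPM with IFNγ, and 371, 271 and 254 CPM in media. The lowest library with IFNγ stood above the highest media library, and Control 3 was the highest in each group. With IFNγ against media Ero1l rose 2.29-fold, a log2 fold change of 1.2 (SE 0.26, edgeR adjusted p = 0.0343). With IFNγ plus FK866 against media it was 1.12 (SE 0.25, edgeR adjusted p = 0.0448). The within-number differences of IFNγ minus media, 1.32, 1.10 and 1.10 in log2 CPM, spread less than the levels did. In the blocked fit Ero1l was called in both comparisons, at 1.17 with IFNγ (edgeR adjusted p = 1.26e-11) and 1.11 with both agents (3.19e-11), and also without any 1 number, at log2 fold changes of 1.10 to 1.22 with IFNγ and 1.09 to 1.161 with both agents. Without the block the IFNγ call was lost without Media 4 (log2 fold change 1.13, adjusted p = 0.152), Media 5 (1.10, 0.143), IFNγ 3 (0.92, 0.0915), IFNγ 4 (1.3, 0.0615) or IFNγ plus FK866 4 (1.2, 0.056), with the log2 fold change and then edgeR's adjusted p in each pair. The call with both agents was lost, by the same pairs, without Media 3 (1.31, 0.0505), Media 4 (1.06, 0.189), Media 5 (1.03, 0.179), IFNγ 4 (1.12, 0.0635), IFNγ plus FK866 3 (0.89, 0.139) or IFNγ plus FK866 4 (1.20, 0.0974).

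Ndrg1 and Ero1l were 2 of 10 HIF targets called at an adjusted p below 0.05 with IFNγ against media, 1 lower and 1 higher. Among all genes tested 0.499% were called lower and 2.8% higher. With both agents against media the same counts held, with 0.597% of all genes called lower and 2.76% higher. The ranges of IFNγ and media libraries did not overlap for these 2 genes, nor for 7.97% of all genes in the higher and 5.85% in the lower direction. With both agents they did not overlap for 3, Ero1l and Kdm3a above and Ndrg1 below media, beside 7.98% and 6.29% of all genes. Libraries of the same number deviated together from their group means, so the number was also fitted as a replicate block. In that fit 6 of 10 were called with IFNγ against media, 2 higher and 4 lower, where 8.12% of all genes were higher and 6.14% lower. With both agents 7 of 10 were called, 2 higher and 5 lower, where 8.53% of all genes were higher and 7.61% lower. The median log2 fold change of the 10 genes with IFNγ, -0.24 in the blocked fit, stood beside -0.01 for all genes, and the called members lay in both directions.

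**Figure D2:**
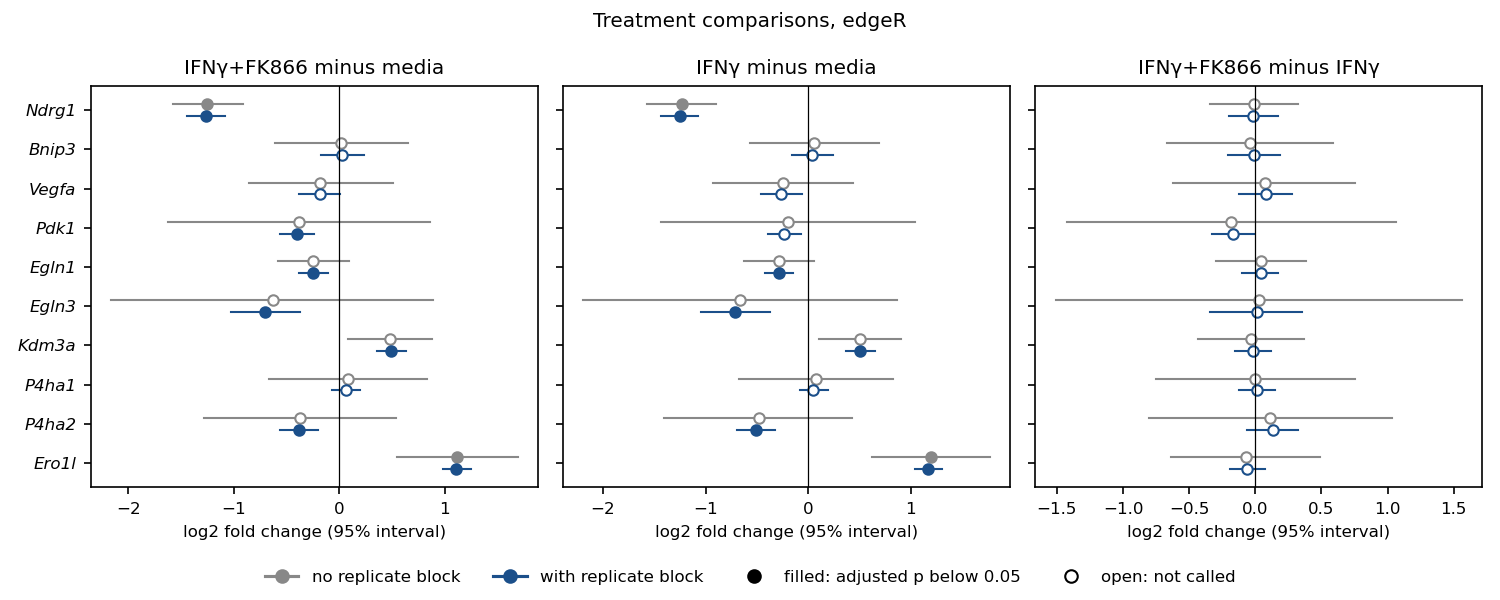
Log2 fold changes (horizontal axes) with 95% intervals of the 10 genes for IFNγ plus FK866 minus media, IFNγ minus media, and IFNγ plus FK866 minus IFNγ; grey is edgeR without and blue with the replicate block, and filled points have an adjusted p below 0.05. Ndrg1 lies below 0 and Ero1l above 0 in both comparisons with media, and no point is filled in the panel on the right.

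Kdm3a (ENSMUSG00000053470, chr6:71588972-71632990), a demethylase of histone H3 lysine 9 that needs oxygen, was the other gene to rise. It read 218, 222 and 181 CPM with IFNγ plus FK866, 245, 222 and 167 CPM with IFNγ, and 170, 159 and 117 CPM in media. IFNγ 5 lay just below Media 3, so the IFNγ and media ranges overlapped, while those of IFNγ plus FK866 and media did not. Without the block the log2 fold change with IFNγ was 0.51 (SE 0.18, edgeR adjusted p = 0.264), and with the block it was 0.51 (SE 0.06, edgeR adjusted p = 5.62e-06). The within-number differences were 0.53, 0.48 and 0.52 in log2 CPM.

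Egln1 and Egln3, the HIF prolyl hydroxylases among the 10 genes, fell in the blocked fit. The third, Egln2, had 0.11 with IFNγ there and was not called (edgeR adjusted p = 0.366). Egln1 (ENSMUSG00000031987), the main HIF prolyl hydroxylase, read 57.7, 46.9 and 59.3 CPM with IFNγ plus FK866, 60.0, 44.8 and 55.0 CPM with IFNγ, and 71.1, 54.8 and 68.5 CPM in media. Its ranges overlapped, yet each media library exceeded both treated libraries of its number. The blocked log2 fold change with IFNγ was -0.28 (SE 0.06, edgeR adjusted p = 0.00365), against an adjusted p of 0.686 without the block.

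Egln3 (ENSMUSG00000035105), a hydroxylase that HIF itself strongly induces, read 6.48, 12.4 and 2.29 CPM with IFNγ plus FK866, 6.58, 11.9 and 2.43 CPM with IFNγ, and 9.10, 18.4 and 5.43 CPM in media. It was the lowest of the 10 genes and the most variable, with a coefficient of variation of 62.4% over the 9 libraries. In raw counts it had 116, 238 and 35 with IFNγ plus FK866, 100, 195 and 41 with IFNγ, and 145, 335 and 91 in media. The blocked log2 fold change with IFNγ was -0.71 (SE 0.16, edgeR adjusted p = 0.0034), and it was not called without the block (adjusted p = 1.0) or in the blocked fit without Control 4 (adjusted p = 0.0889). Without the block and with 1 library left out its value ran from -1.29 (without IFNγ 4) to -0.06 (without Media 4), and it was called in none of these fits.

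P4ha1 and P4ha2 encode catalytic subunits of collagen prolyl 4-hydroxylase, which stabilises the collagen helix. P4ha2 (ENSMUSG00000018906) read 31.6, 21.3 and 13.8 CPM with IFNγ plus FK866, 31.2, 18.9 and 11.8 CPM with IFNγ, and 40.4, 27.2 and 18.7 CPM in media. The blocked log2 fold change with IFNγ was -0.51 (SE 0.09, edgeR adjusted p = 2.83e-04), not called without the block (adjusted p = 1.0), where leaving out 1 library gave -0.91 (without IFNγ 3) to -0.16 (without Media 3). P4ha1 (ENSMUSG00000019916) read 123, 85.6 and 60.8 CPM with IFNγ plus FK866, 129, 81.6 and 58.9 CPM with IFNγ, and 112, 80.8 and 62.3 CPM in media. It was not called in either fit, and its blocked interval, -0.08 to 0.19 on the log2 scale, lies wholly above that of P4ha2, -0.69 to -0.32.

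Pdk1 (ENSMUSG00000006494) encodes a kinase that blocks entry of pyruvate into mitochondria. It read 59.6, 38.7 and 17.4 CPM with IFNγ plus FK866, 72.8, 38.6 and 20.4 CPM with IFNγ, and 77.2, 48.3 and 25.3 CPM in media. In the blocked fit it fell with IFNγ plus FK866 (log2 fold change -0.40, SE 0.08, edgeR adjusted p = 7.24e-04), while with IFNγ alone it had -0.23 and an adjusted p of 0.0509. The difference between the 2 conditions, -0.17 in that fit, had an adjusted p of 0.987, so the gene was not shown to differ between them. Without the block neither was called (adjusted p = 1.0 for each).

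Vegfa (ENSMUSG00000023951), the vessel growth factor most closely tied to hypoxia, read 29.0, 18.1 and 17.7 CPM with IFNγ plus FK866, 29.4, 16.9 and 15.8 CPM with IFNγ, and 32.3, 23.0 and 18.1 CPM in media. Its blocked log2 fold change with IFNγ was -0.26 with a 95% interval of -0.46 to -0.06 (edgeR adjusted p = 0.081). Bnip3 (ENSMUSG00000078566), which directs mitochondria to autophagy, read 38.5, 28 and 28.1 CPM with IFNγ plus FK866, 46.2, 29.1 and 22.2 CPM with IFNγ, and 39.5, 30.4 and 23.3 CPM in media. Its blocked log2 fold change was 0.04 with an interval of -0.16 to 0.24 (edgeR adjusted p = 0.88). Neither gene was called in a comparison with media by either fit. Bnip3 overlaps the opposite-strand gene Gm45507, which held 39 counts against 4783 for Bnip3.

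With both agents against media the blocked fit also called Kdm3a higher (log2 fold change 0.49, edgeR adjusted p = 8.68e-06) and Egln1 (-0.25, 0.0105), Egln3 (-0.70, 0.0034) and P4ha2 (-0.38, 0.00403) lower, with the adjusted p second in each pair. The Egln1 call was lost without Control 3 (adjusted p = 0.096) or Control 4 (0.0942), and the Egln3 call without Control 4 (0.0766). These values rest on the same media libraries as those with IFNγ alone.

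FK866 added to IFNγ moved none of the 10 genes past the threshold. Without the block 0 of 10 HIF targets and 0 of 15237 genes (0%) were called by edgeR, although 88 genes had an unadjusted p below 0.05, none of them among the 10. The ranges with and without FK866 overlapped for each of the 10, while 1.94% of all genes lay wholly higher and 1.39% wholly lower. DESeq2 and limma-voom also called 0 genes, with 61 and 85 at an unadjusted p below 0.05. With the block 3 genes (0.0197%) were called, none of them among the 10. In that fit 573 of 15237 genes had an unadjusted p below 0.05, 1 of them among the 10. The blocked 95% intervals of the log2 difference ran from -0.20 to 0.17 for Ndrg1, from -0.19 to 0.07 for Ero1l, from -0.15 to 0.12 for Kdm3a and from -0.10 to 0.17 for Egln1. The widest was that of Egln3, from -0.34 to 0.35. Pdk1 had the one interval that left out 0, -0.33 to -0.01, with an unadjusted p of 0.0423 and an adjusted p of 0.987. Its differences by number were -0.29, 0.01 and -0.22 in log2 CPM, lower in 2 of 3 pairs.

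The number in the titles also separated the 10 genes. Over their 3 libraries, 1 of each treatment, Control 3 was set against the mean of Control 4 and Control 5 in a fit of treatment plus number. In it 8 of 10 HIF targets were called higher and 0 lower, where 19.6% of all genes were called higher and 18.9% lower. The median log2 fold change of the 10 was 0.62, against 0 for all genes. Library totals and RLE size factors gave the same counts of 8 and 0. In all comparisons of numbers the 3 libraries of a number, 1 of each treatment, stood as its replicates. Libraries of the same number deviated together, so these p-values do not measure the spread between independent samples of a number. For Pdk1, P4ha1, P4ha2, Vegfa and Bnip3 every Control 3 library exceeded every other, which held for 10.4% of all genes, while 11% lay wholly lower.

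Pdk1 had the largest difference of the 10 between Control 3 and the other numbers. It averaged 69.9 CPM in Control 3 (59.6 to 77.2), 41.8 CPM in Control 4 (38.6 to 48.3) and 21.0 CPM in Control 5 (17.4 to 25.3), so the ranges of the 3 numbers did not meet whatever the treatment. Its log2 fold change for Control 3 was 1.24 (SE 0.06, edgeR adjusted p = 8.62e-12), and Control 4 exceeded Control 5 by 1.00 (SE 0.08, edgeR adjusted p = 1.96e-08). The highest library of a group was 3.05 to 3.57 times the lowest.

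Both collagen hydroxylase genes followed the same order. P4ha1 averaged 122 CPM in Control 3, 82.7 CPM in Control 4 and 60.7 CPM in Control 5, and P4ha2 averaged 34.4, 22.4 and 14.8 CPM in these numbers. For Control 3 the log2 fold changes were 0.78 for P4ha1 (edgeR adjusted p = 9.48e-10) and 0.92 for P4ha2 (6.96e-09). Control 4 exceeded Control 5 by 0.45 for P4ha1 (edgeR adjusted p = 3.59e-05) and by 0.61 for P4ha2 (5.19e-05). P4ha1, which did not respond past the threshold to either treatment, thus varied up to 2.19-fold among the libraries of a group.

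Vegfa, Bnip3 and Ero1l stood high in Control 3 and close together in Control 4 and 5. Vegfa averaged 30.3 CPM in Control 3 (29.0 to 32.3), 19.3 CPM in Control 4 and 17.2 CPM in Control 5, a log2 fold change of 0.73 for Control 3 (edgeR adjusted p = 3.77e-07). Bnip3 averaged 41.4, 29.1 and 24.5 CPM in Control 3, 4 and 5, with 0.63 (edgeR adjusted p = 4.01e-06). Ero1l averaged 716, 478 and 441 CPM, with 0.62 (edgeR adjusted p = 2.13e-08). The Ero1l ranges of the numbers overlapped, its media libraries being the low ones in each. Between Control 4 and Control 5 none of the 3 genes was called (edgeR adjusted p = 0.22 for Vegfa, 0.0591 for Bnip3, 0.194 for Ero1l), and scaled by library totals Bnip3 (0.019) and Ero1l (0.0061) were. Bnip3 was also called with no filter (0.0378) and without Media 3 (0.0492), IFNγ plus FK866 3 (0.0363) or IFNγ plus FK866 5 (0.00835).

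The hydroxylases and the demethylase differed in which number was high. Kdm3a was 0.26 higher in Control 3 on the log2 scale (edgeR adjusted p = 0.0008) and 0.38 higher in Control 4 than in Control 5 (0.00015). Egln1 averaged 63.0 CPM in Control 3, 48.8 CPM in Control 4 and 60.9 CPM in Control 5, so Control 4 was the low one. It was 0.21 higher in Control 3 (edgeR adjusted p = 0.00565, and 0.0914 without IFNγ 3) and -0.32 in Control 4 against Control 5 (0.000905). Egln3 averaged 7.39, 14.2 and 3.38 CPM in Control 3, 4 and 5, and its log2 fold change of Control 4 against Control 5 was 2.10 (SE 0.17, edgeR adjusted p = 1.52e-08). Control 3 lay between, and against the other 2 numbers it was not called (0.11, adjusted p = 0.569).

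Ndrg1 did not follow the numbers that ordered most of the others. Its means were 95.7 CPM in Control 3, 92.0 CPM in Control 4 and 102 CPM in Control 5, and the log2 fold change for Control 3 was -0.05 with an interval of -0.21 to 0.11 (edgeR adjusted p = 0.651). Control 4 against Control 5 had a log2 fold change of -0.25 (SE 0.09, edgeR adjusted p = 0.035). That call was lost with library totals (adjusted p = 0.205) and without IFNγ 4 (0.155), IFNγ 5 (0.234), IFNγ plus FK866 4 (0.252) or IFNγ plus FK866 5 (0.262). In all, Control 4 against Control 5 gave 5 HIF targets higher and 2 lower, where 15.9% of all genes were higher and 15.2% lower. The ranges of these numbers did not overlap for Pdk1, P4ha1, P4ha2 and Egln3, higher in Control 4, and for Egln1, lower in it, beside 16.9% and 17.1% of all genes. Scaled by library totals it gave 7 higher and 1 lower of the 10, and the split over all genes was 3592 higher and 1534 lower in place of 2422 and 2311.

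**Figure D3:**
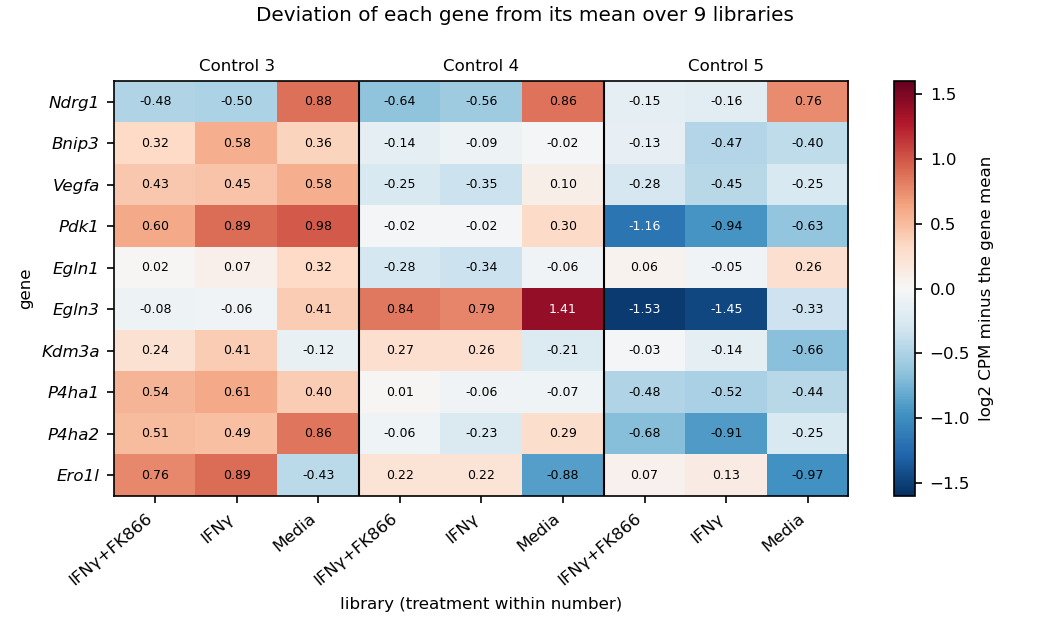
Log2 CPM of each gene (rows) minus its mean over the 9 libraries (columns, grouped by number and, within it, by treatment); red is above and blue below the gene's mean. Pdk1 and P4ha2 go from red in Control 3 to blue in Control 5, Egln3 is highest in Control 4, and Ndrg1 is red in the 3 media libraries.

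Whether the response to IFNγ depended on the number was tested with an interaction, in which the IFNγ and the IFNγ plus FK866 library of a number stood as 2 libraries with IFNγ and the media library as 1 without. Of the 10 genes 0 were called by edgeR (0 at an unadjusted p below 0.05), against 113 of 15237 genes (0.742%). DESeq2 and limma-voom called 0 of the 10 as well, also with 0 at an unadjusted p below 0.05. For Ndrg1 the difference of the IFNγ response in Control 3 from that in Control 4 and 5 was -0.18 on the log2 scale (95% interval -0.38 to 0.03, edgeR adjusted p = 0.512). For Ero1l it was 0.18 (-0.04 to 0.39, adjusted p = 0.528), and for Egln3 0.42 (-0.12 to 0.96, adjusted p = 0.561). The lone media library of each number is assumed to vary like the others.

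The HIF subunits and their regulators were read at the RNA level. Of 16 listed pathway genes 15 were tested, and with IFNγ against media 0 were called without the block. With the block 2 were higher, Cul2, the scaffold of the Vhl ligase, at 0.28 (edgeR adjusted p = 0.00339) and Hif1an, an asparaginyl hydroxylase that silences HIF, at 0.20 (0.0398), beside 8.12% of all genes called higher. The Cul2 call was lost without Control 4 (adjusted p = 0.0631) and the Hif1an call without any of the 3 numbers (0.107 to 0.182). Hif1a RNA read 284, 242 and 249 CPM with IFNγ plus FK866, 275, 233 and 262 CPM with IFNγ, and 296, 262 and 285 CPM in media, a blocked log2 fold change of -0.14 for IFNγ (edgeR adjusted p = 0.172). Epas1 had 0.03 (adjusted p = 0.893), Arnt 0.15 (0.101) and Vhl 0.18 (0.25) in the same fit. For Control 3 against the other numbers 6 of the 15 pathway genes were higher and 4 lower, beside 19.6% and 18.9% of all genes. Hif1a was 0.16 higher there (edgeR adjusted p = 0.0188), which was lost without IFNγ 3 (0.111), IFNγ 4 (0.0617), IFNγ plus FK866 3 (0.1) or IFNγ plus FK866 5 (0.0517). The counts measure RNA only, and HIF alpha is known to be set mainly by protein stability.

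Among 35 other listed HIF targets, 33 were tested, and with IFNγ against media 0 were called without the block and 2 higher and 7 lower with it, where 8.12% of all genes were higher and 6.14% lower. Among the genes called in that fit were Wsb1 (0.44, edgeR adjusted p = 3.14e-05), Bhlhe40 (-0.43, 6.35e-05), Narf (-0.47, 0.00154), Adm (-2.95, 4.47e-04), Mxi1 (-0.41, 0.0106) and Plod2 (-0.19, 0.0494). These are not all of the genes called there. Bhlhe40, a repressor of the clock and of differentiation, read 142, 99.5 and 132 CPM with IFNγ plus FK866, 146, 112 and 124 CPM with IFNγ, and 186, 159 and 168 CPM in media, with no overlap between treated and media libraries. Adm, the vasodilator adrenomedullin, is near the floor of detection, with 3, 16 and 2 raw counts with IFNγ plus FK866, 2, 8 and 0 with IFNγ, and 14, 66 and 6 in media. Mxi1 lost its call without Control 3 (adjusted p = 0.0603) or Control 4 (0.207), Plod2 without any of the numbers (0.104 to 0.21), and Adm was not tested without Control 4.

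By number, many of these targets were higher in Control 3. For Control 3 against Control 4 and 5, 22 of 33 were higher and 0 lower, where 19.6% of all genes were higher and 18.9% lower, with a list median of 0.34 against 0 for all genes, and 22 and 23 were higher under RLE size factors and library totals. The largest of these 33, named after its value was seen, was that of Loxl2, a lysyl oxidase that crosslinks collagen, at 3.17 (edgeR adjusted p = 7.27e-11). Loxl2 read 11, 1.56 and 0.655 CPM in Control 3, 4 and 5 with IFNγ plus FK866, 11, 1.71 and 1.01 CPM with IFNγ, and 12.2, 1.26 and 1.49 CPM in media. Hmox1 (1.47), Zfp395 (1.45), Hk2 (1.03), Bnip3l (1.02) and Fam162a (1.02) followed on the log2 scale, and of the other glycolytic enzymes on the list Pgk1 (0.46), Eno1 (0.37), Tpi1 (0.31) and Pgam1 (0.29) were called, while Ldha (0.04, edgeR adjusted p = 0.572) and Aldoa (-0.06, 0.399) were not. The Hk2 value averages over treatments that differed: Control 3, 4 and 5 read 291, 102 and 116 CPM with IFNγ, and 153, 117 and 126 CPM in media. For Control 4 against Control 5 the list gave 8 higher and 6 lower, beside 15.9% and 15.2% of all genes, and 13 higher and 5 lower when scaled by library totals.

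**Figure D4:**
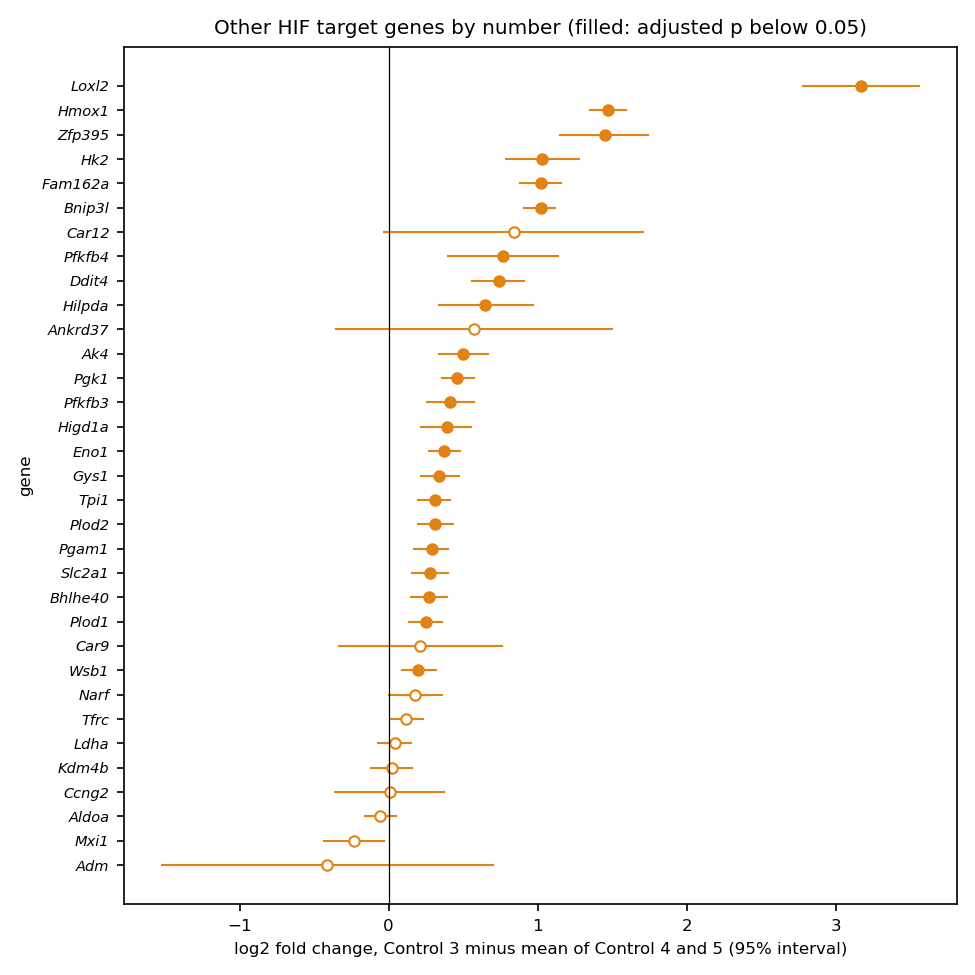
Log2 fold change of Control 3 minus the mean of Control 4 and 5 (horizontal axis) with 95% intervals for the 33 other HIF targets tested (rows, sorted by value); filled points have an edgeR adjusted p below 0.05. The 22 filled points all lie above 0, from 0.20 for Wsb1 to 3.17 for Loxl2.

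**Figure D5:**
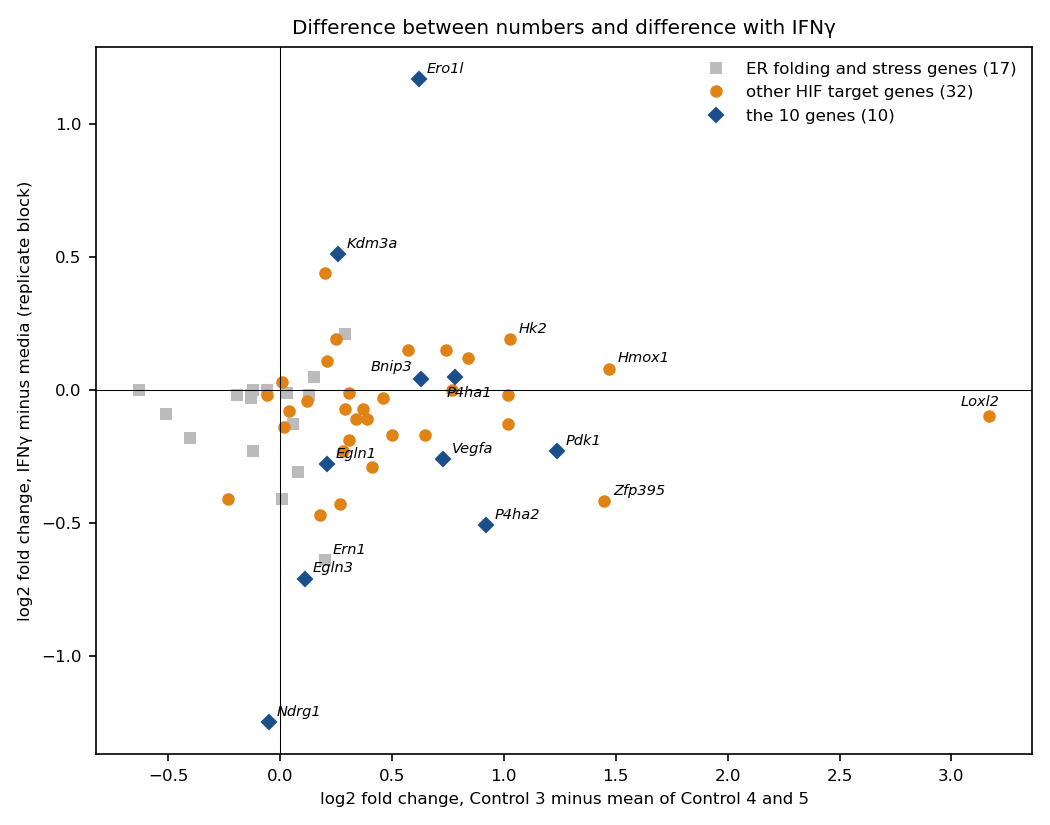
Log2 fold change of IFNγ minus media in the blocked fit (vertical axis) against that of Control 3 minus the mean of Control 4 and 5 (horizontal axis), both from the same 9 libraries, for the 10 genes (blue diamonds), the other HIF targets (orange circles, Adm at -2.95 left out) and endoplasmic reticulum folding genes (grey squares). Ndrg1 lies at -0.05 and -1.25 and Ero1l at 0.62 and 1.17, while Pdk1, at 1.24 and -0.23, lies far right and close to the horizontal line.

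Relatives of the 10 genes were compared per length. Ndrg3 stood at 9.81 ± 1.47 CPM per kb with IFNγ plus FK866, 9.31 ± 1.55 CPM per kb with IFNγ and 9.58 ± 1.67 CPM per kb in media (SD, n = 3 each), so Ndrg1 and Ndrg3 were level with IFNγ and Ndrg1 was the higher in media. The Ero1l paralog Ero1lb stood at 0.838 ± 0.165, 0.839 ± 0.134 and 0.918 ± 0.185 CPM per kb in the 3 groups in that order. Pdk3 was the most abundant of the 4 pyruvate dehydrogenase kinases, at 21.1 ± 1.56 CPM per kb with IFNγ plus FK866, 21.9 ± 3.48 CPM per kb with IFNγ and 17.8 ± 2.5 CPM per kb in media. Of 14 relatives tested, Pdk3 alone was called with IFNγ against media, with the block (0.30, edgeR adjusted p = 0.00435), and Pdk3 (0.25, 0.0149) and Bnip3l (-0.24, 0.00893) were called with both agents. Of all genes 8.12% were called higher in the blocked fit with IFNγ, and 8.53% higher and 7.61% lower with both agents. Vegfb, at 42.6 ± 7.57, 42.6 ± 5.97 and 45.2 ± 6.59 CPM per kb in the 3 groups in that order, exceeded Vegfa.

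Because Ero1l acts in the endoplasmic reticulum, 17 folding and stress genes of that compartment were read beside it. With IFNγ against media 0 were called without the block, and with it 1 was higher, Atf6 (0.21, edgeR adjusted p = 0.0246), and 3 lower, the stress sensor kinase Ern1 (-0.64, 5.99e-07), Dnajb9 (-0.31, 0.00686) and Ddit3 (-0.41, 0.0449). In that fit 8.12% of all genes were higher and 6.14% lower. Ern1 read 52.0, 51.8 and 37.6 CPM with IFNγ plus FK866, 54.3, 50.8 and 37.7 CPM with IFNγ, and 75.4, 83.9 and 62.1 CPM in media. The Atf6 call was lost without Control 3 (adjusted p = 0.197) or Control 5 (0.0891), the Dnajb9 call without Control 4 (0.0846), and the Ddit3 call without Control 4 (0.432) or Control 5 (0.185). The list median was -0.02, against -0.01 for all genes and 1.17 for Ero1l.

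Profiles over the 9 libraries were ranked by the root mean square difference of centred log2 CPM among 9717 genes with a mean of at least 5 CPM. Nearest to Ndrg1 was Bhlhe41 (0.117), the paralog of Bhlhe40. Bhlhe41 ran from 114 to 152 CPM with IFNγ plus FK866, from 107 to 139 CPM with IFNγ and from 273 to 297 CPM in media. Aatk (0.163), Tmem86a (0.173), Rapgef3 (0.174) and Nol4l (0.201) came next. Nearest to Ero1l was Gclm (0.096), a subunit of the enzyme that makes the glutathione precursor, which ran from 133 to 252 CPM with IFNγ plus FK866, from 155 to 249 CPM with IFNγ and from 77.7 to 118 CPM in media. Tnfaip2 (0.122), Bid (0.123), Maff (0.135) and Col16a1 (0.141) followed. None of these 10 neighbours is among the other HIF target genes listed here. The members themselves were left out of the ranking, and the list is short beside the 9717 genes ranked, so this absence tells little.

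The promoters were read from RefSeq (GRCm38.p6) for hypoxia response elements. The part of these elements in the differences by number or treatment was not tested. RefSeq windows were matched for 9 of the 10 genes, and the promoter set used here held no entry for Ndrg1. The 250 bases before each start were searched on both strands for the core of the hypoxia response element, ACGTG or GCGTG, whose matches may overlap. All 9 genes held a core in at least 1 window, 9 of their 13 windows in all. For Vegfa that window belonged to a start 7206 bases inside the annotated gene span. Its upstream window, at chr17:46032378-46032627, held no core. Among all 32851 promoter windows of that length 38.6% held one, 16.6% with ACGTG and 28.2% with GCGTG. Bnip3 and P4ha1, which lay high in Control 3 and were not called with IFNγ, are shown with the cores in capitals on either strand, from their RefSeq windows at chr7:138909520-138909756 (minus strand, 5 cores) and chr10:59323046-59323295 (plus strand, 3 cores).
Bnip3: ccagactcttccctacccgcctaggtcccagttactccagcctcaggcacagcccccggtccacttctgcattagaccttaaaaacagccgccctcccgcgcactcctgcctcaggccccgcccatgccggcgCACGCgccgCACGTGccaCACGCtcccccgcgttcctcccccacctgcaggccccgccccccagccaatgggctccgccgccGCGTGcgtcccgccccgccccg
P4ha1: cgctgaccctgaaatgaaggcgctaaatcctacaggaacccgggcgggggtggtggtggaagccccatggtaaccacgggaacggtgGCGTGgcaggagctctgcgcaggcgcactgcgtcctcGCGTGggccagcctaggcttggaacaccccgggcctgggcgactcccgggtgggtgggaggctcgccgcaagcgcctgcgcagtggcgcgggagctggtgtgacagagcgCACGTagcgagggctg

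Shorter stretches around the ACGTG core nearest the start, or the nearest GCGTG core where a gene had no ACGTG, are shown with every core in capitals for the other 7 genes to set the letters beside the responses. Their places are chr14:45318619-45318647 (minus strand) for Ero1l, chr6:71632928-71632956 (minus) for Kdm3a, chr8:124949306-124949334 (minus) for Egln1, chr12:54204087-54204115 (minus) for Egln3, chr11:54100834-54100862 (plus) for P4ha2, chr2:71873134-71873162 (plus) for Pdk1 and chr17:46025358-46025386 (minus) for Vegfa. The RefSeq starts of these stretches lie inside the annotated gene span for Vegfa by 7206 bases, P4ha2 by 829, Ero1l by 199, Kdm3a by 73 and Egln1 by 70, and the start of the Bnip3 window by 13.
Ero1l: cgcgcgccgctgCACGTccgcaggggagg
Kdm3a: ccgggaggctgtGCGTGtcttgtgagaga
Egln1: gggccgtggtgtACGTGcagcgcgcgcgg
Egln3: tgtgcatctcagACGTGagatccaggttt
P4ha2: tgtgcatcgcatACGTGcagcGCGTGgcg
Pdk1: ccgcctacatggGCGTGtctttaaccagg
Vegfa: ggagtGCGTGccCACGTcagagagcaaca
Ero1l, which rose with IFNγ, held 3 cores, at 63, 88 and 128 bases before its start. Egln1 and P4ha2, which fell in the blocked fit, held 2, at 68 and 126 bases, and 3, at 69, 78 and 107 bases. Kdm3a, which rose in that fit, held 1, at 27 bases, and Egln3, which fell in it, held 1, at 229 bases. Of the 9 genes with a core, 2 were called higher and 3 lower with IFNγ in the blocked fit, beside 8.12% and 6.14% of all genes. In Control 3, 8 were called higher and 0 lower, beside 19.6% and 18.9% of all genes. Every gene with a window held a core in at least 1 of its windows, so genes with and without a core could not be compared. For Vegfa the only cores lay in the window 7206 bases inside its annotated span, and its upstream window held none.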

How the data were processed

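The authors deposited a table of raw, unnormalised read counts (whole numbers) by Ensembl gene and library. The submitters' processing notes list, without role or order, cutadapt 1.16, STAR 2.7.6a, DESeq2 1.30.1, featureCounts 1.6.3 and the builds GRCm38 and mm10. The sources used here give neither the strand setting nor the annotation release. The series text names a 10x platform, but the table holds no values per cell and was treated as bulk RNA sequencing. Symbols matched 55141 of 55487 gene IDs, and coordinates and exon lengths came from GENCODE M21.

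Counts were tested with edgeR 4.0.16 (R 4.3.3) by the quasi-likelihood F test, with TMM scaling, filterByExpr (15237 genes kept) and Benjamini-Hochberg adjustment over all of them, calling an adjusted p below 0.05. All 9 libraries entered each fit. SEs were taken as the log2 fold change over the root of F. CPM are TMM-normalised. DESeq2 1.42.0 and limma 3.58.1 were alternatives. The replicate number was fitted in addition as a block, and libraries of the same number deviated together across treatments (r from 0.555 to 0.728 over 9 pairs, against -0.477 to -0.112 over 18 pairs of unlike numbers), so blocked values are given where they change a call. The scripts were tested on simulated counts. Replicate pairs gave a chi-square of 21.6 to 37.2 per degree of freedom, so none were merged.

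The 10 genes and the lists were chosen with earlier results of these data known. One listed HIF target is not reported here and was left out of the list counts. Named genes are the 10, the called members of the lists in a treatment comparison (at most the 6 with the smallest p per list), Hif1a, Epas1, Vhl and Arnt, and the 5 profiles nearest to Ndrg1 and to Ero1l. Genes named beyond that are said to be so, or were drawn from the marker and number comparisons after their values were seen.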

Additional observations from a re-analysis of the deposited data

Results flagged for a closer look

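Hk2, the hexokinase that starts glycolysis and another HIF target, was the only gene of the HIF, family and endoplasmic reticulum lists whose response to IFNγ differed between the numbers. It read 285, 105 and 135 CPM with IFNγ plus FK866, 291, 102 and 116 CPM with IFNγ, and 153, 117 and 126 CPM in media, in the order Control 3, 4 and 5. Both Control 3 libraries with IFNγ stood above the rest, and the Control 4 and 5 libraries overlapped across treatments. The IFNγ response in Control 3 exceeded that in Control 4 and 5 by 1.01 on the log2 scale (SE 0.11, edgeR interaction, adjusted p = 5.75e-07), and it was called in every alternative run. The within-number differences of IFNγ minus media were 0.93, -0.20 and -0.12 in log2 CPM. The media library of each number is a lone one.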

How the results depend on the processing

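Over all alternatives 960 values of the 10 genes were compared with those of the main fits: 843 kept their direction and side of the threshold, 17 lost and 39 gained a call, and 61 changed sign. Of these 61, 0 had been called in the main fit. The replicate block raised the called genes to 2173 (6 of the 10) with IFNγ against media, 2459 (7 of the 10) with both agents, and 3 between them, and DESeq2 gave 757 and 775 against media. For the interaction, library totals gave 45, no filter 233, DESeq2 34 and limma-voom 55 genes. Leaving out 1 library without the block gave 314 to 487 genes and 1 to 2 of the 10 for IFNγ against media (314 without Media 4, Media 5 or IFNγ 4), 322 to 479 and 1 to 2 with both agents (322 without Media 4, 328 without IFNγ plus FK866 4), and 0 between them. Leaving out 1 number with the block gave 1402 to 1883 genes and 5 to 7 of the 10 with IFNγ (1402 without Control 4), 1398 to 2602 and 5 to 7 with both agents (1398 without Control 4), and 1 to 8 between them (8 without Control 3, 1 without Control 4). Leaving out 1 library gave 3062 to 5358 for Control 4 against 5 (3062 without IFNγ 5), and 31 to 277 for the interaction (277 without IFNγ 5, 31 without IFNγ plus FK866 4). The interaction could not be fitted without a media library.

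Sign changes came in differences that were not called in the main fits. Some of these moved far when 1 library was left out, as Egln3 did between both agents and IFNγ, from -0.658 to 0.655. Leaving out 1 library without the block (for Epas1, 1 number with it) gave these log2 ranges for IFNγ against media: Bnip3 -0.277 to 0.277, P4ha1 -0.273 to 0.328, Vegfa -0.582 to 0.007, Pdk1 -0.767 to 0.251, Epas1 -0.021 to 0.123. With both agents against media they were Bnip3 -0.148 to 0.230, P4ha1 -0.215 to 0.329, Vegfa -0.449 to 0.073, Pdk1 -0.837 to 0.069, Bnip3l -0.643 to 0.181. Between both agents and IFNγ they were Ndrg1 -0.160 to 0.117, Ero1l -0.309 to 0.213, Kdm3a -0.176 to 0.091, Egln1 -0.075 to 0.137, Egln3 -0.658 to 0.655, P4ha1 -0.295 to 0.359, P4ha2 -0.229 to 0.540, Pdk1 -0.640 to 0.393, Bnip3 -0.257 to 0.302 and Vegfa -0.206 to 0.409. There library totals gave 0.027 for Ndrg1 and 0.006 for Kdm3a, no filter 0 for P4ha1, and limma-voom 0.02 for Bnip3. For Control 3 Ndrg1 gave -0.136 to 0.016. The interaction gave Bnip3 -0.044 to 0.218, Pdk1 -0.002 to 0.286, Egln1 -0.039 to 0.017 and Kdm3a -0.163 to 0.003. The cause was not tested. The nearest profiles were the same 5 genes with a prior count of 0.5.

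The limits lie in the design: 3 libraries a group, numbers of unstated meaning, and low counts for Egln3, Adm and, in Control 3, Arnt2.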

Other observations

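Genes of protein folding in the endoplasmic reticulum, where Ero1l acts, differed between Control 4 and Control 5. Of the 17 listed genes 10 were lower in Control 4 and 1 higher, where 15.2% of all genes were lower and 15.9% higher, and library totals gave 10 lower and 2 higher. The genes named here were chosen after their values were seen. They include the chaperones Calr (log2 fold change -0.67, edgeR adjusted p = 1.12e-07) and Hyou1 (-0.50, 1.88e-05) and the disulfide isomerases Pdia3 (-0.49, 7.66e-06), Pdia6 (-0.48, 1.10e-05) and P4hb (-0.30, 0.002), P4hb being also the partner subunit of P4ha1 and P4ha2. P4ha1 and P4ha2 were higher in Control 4 than in Control 5, by 0.45 and 0.61. For Control 3 against Control 4 and 5 the folding list gave 2 higher and 4 lower, beside 19.6% and 18.9% of all genes, and 4 and 6 when scaled by library totals. The lower genes include Hyou1 (-0.63, edgeR adjusted p = 1.16e-07).

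Of the HIF pathway genes, Arnt2, an alternative partner of HIF alpha, was lower in Control 3 than in Control 4 and 5 by -3.90 on the log2 scale (edgeR adjusted p = 3.1e-08), and Egln2, the third HIF prolyl hydroxylase, by -0.41 (1.83e-05). Arnt2 was near the floor of detection in Control 3, with 11, 0 and 8 raw counts with IFNγ plus FK866, with IFNγ and in media. Egln2 averaged 18.2 ± 3.01 CPM per kb with IFNγ plus FK866, 19.1 ± 2.93 CPM per kb with IFNγ and 17.7 ± 3.24 CPM per kb in media (SD, n = 3 each), and it was not called in a comparison of treatments.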
